A study of Drosophila melanogaster with 6 samples.

Results

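The genes of the proteasome, the protease complex that degrades ubiquitin-tagged proteins, were examined in RNA-seq of aging fly eyes. Members were chosen by name from the gene rows of the count files, as every FlyBase symbol that starts with Prosalpha, Prosbeta, Rpn or Rpt followed by a digit. This gave 48 genes, counted in 48 of the 14537 gene rows. Of these, 32 encode core or cap subunits and 16 are paralogs whose symbol carries a T or R after the number, which are largely known from testis and are described apart. The rule used symbols and no measured value, but it was set with earlier results of these data known.

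Eyes were dissected from male flies at day 40 (3 libraries) and day 10 (3 libraries) after eclosion, and the question was how gene expression and splicing in the eye change with age. The flies of both ages were labeled WT but shared the genotype w;; with UAS-GFP-Msp300KASH inserted at attP2, rh1-GAL4 on the same chromosome and ry[506]. They therefore expressed a GFP-tagged KASH protein in the outer photoreceptors, where the Rh1 promoter is active, at both ages. All flies were kept at a single temperature on a light-dark cycle and standard food, and the number of eyes per library is not given in the sources used here.

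The proteasome has a barrel-shaped core particle and a regulatory cap. The core stacks rings of alpha subunits, which form the gate, outside rings of beta subunits, of which Prosbeta1, Prosbeta2 and Prosbeta5 carry the proteolytic sites. The cap consists of a base, where the Rpt ATPases unfold substrates and Rpn1, Rpn10 and Rpn13 bind ubiquitin, and a lid, where Rpn11 removes the ubiquitin chain. Each subunit is needed in fixed proportion, and in flies and other animals the genes are known to be induced together when proteasome activity is blocked.

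Counts on genes totaled 8476220 to 12686867 per day 40 library and 8946125 to 15029770 per day 10 library. The tissue label was checked with ninaE, the Rh1 rhodopsin, which had 46623 to 61800 counts per 1000000 (CPM) at day 40 and 42293 to 81272 CPM at day 10. CPM here are scaled by the trimmed mean of M-values (TMM). Of 12 photoreceptor markers, 0 passed the edgeR test between ages and 3 had an unadjusted p-value under 0.05, and DESeq2 called Rh3, Rh4 and Rh6. These 3 were higher at day 40, by log2 changes of 0.49, 0.56 and 0.49 in edgeR. Of all 12 markers, 8 had log2 changes above 0 and 4 below 0, with ninaE at -0.15. The summed level of these markers was 78949 to 93821 CPM at day 40 and 67926 to 118350 CPM at day 10. Some markers of other cells passed the test. These were Crys, the only marker of the lens-secreting cells, Hml, 1 of 4 hemocyte markers, and the row of Lsp2, 1 of 3 fat body markers, lower at day 40 by log2 changes of -1.93, -1.29 and -1.15. The other hemocyte markers had log2 changes of 0.08 (NimC1), -0.25 (Pxn) and -0.44 (eater), and the other fat body markers of -0.22 (Fbp1) and 0.15 (Fbp2), and 0 of these 5 passed. DESeq2 also called Crys, Hml and the Lsp2 row, and in addition Act88F, 1 of 3 muscle markers counted. In edgeR, Act88F had a log2 change of -1.73 with an adjusted p-value of 0.183, against -0.18 for Mhc and -0.31 for up. The summed hemocyte level was 225 to 252 CPM at day 40 and 376 to 641 CPM at day 10. Of this sum, Hml alone held 137 to 157 CPM at day 40 and 269 to 519 CPM at day 10. The fat body markers summed to 104 to 173 CPM at day 40 and 279 to 330 CPM at day 10. Of these, the Lsp2 row alone held 98.3 to 168 CPM at day 40 and 274 to 324 CPM at day 10. The shifts in both sums thus came mostly from these single rows. In whole eyes, fewer cells of a type and less RNA per cell cannot be told apart, and the part of these shifts in the values below was not tested. Among the day 10 libraries, replicate 1 had the highest photoreceptor sum and the fewest junction counts for its total, and replicate 3 had the lowest photoreceptor sum and the highest hemocyte and muscle sums. The GFP-KASH transgene was also lowest in day 10 replicate 3, at 1731 CPM, against 2474 to 3267 CPM in the day 40 libraries and 2617 and 2752 CPM in the other day 10 libraries.

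The 32 core and cap subunits comprise 7 alpha, 7 beta, 6 base ATPase, 4 other base and 8 lid genes. Of these, 19 were counted alone and 13 share a row with overlapping genes, whose reads cannot be separated from theirs. The shared rows include all 3 catalytic beta subunits (Prosbeta1 with CG8389, Prosbeta2 with Reck and Prosbeta5 with Lsm10). They also include Rpt5, which shares its row with Hrd3, PTPMT1 and SdhD, and Rpn9, which shares its row with 4 other genes. Together the 32 rows took 0.163% to 0.21% of the counts on genes in each library.

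Genes for the proteasome core and cap were all detected in each of the 6 libraries, and none of them passed the test between day 40 and day 10. In edgeR's quasi-likelihood test, 0 of 32 had an adjusted p-value under 0.1, where 381 of 9255 rows tested, or 4.12%, did (2.14% higher and 1.98% lower at day 40). The share of all rows called was 1.23%, 1.18% and 1.57% without day 40 replicate 1, 2 or 3 and 4.69%, 3.99% and 3.71% without day 10 replicate 1, 2 or 3, with 0 members called in each case. Log2 changes of the members lay above 0 for 18 and below 0 for 14, with a median of 0.04, against -0.01 over all rows tested. Without adjustment 1 of 32 members had a p-value under 0.05, against 14.3% of all rows. DESeq2 called 1 member, the Prosbeta1 row, and 6.22% of all rows, whereas limma-voom called 0 members and 2.77% of all rows. Before adjustment 1 member had a p-value under 0.05 in each of these tools, against 9.14% of all rows in DESeq2 and 13.3% in limma-voom.

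The size of any change was bounded by its 95% interval. This interval stayed within a 2-fold change in either direction for 32 of 32 members, against 70.7% of all rows tested. Within 1.5-fold, it did so for 28 of 32, against 43.9% of all rows. The exceptions were Prosalpha1, Prosalpha3, Prosalpha4 and Prosbeta1, whose upper bounds exceeded 1.5-fold. For the 19 members counted alone, 19 intervals stayed within 2-fold and 17 within 1.5-fold. The intervals of the 13 shared rows bound the change of the whole row and not that of the subunit itself. The lowest bound was a log2 change of -0.58, for Rpn8, and the highest was 0.93, for Prosalpha4. The median absolute log2 change was 0.10 for the members and 0.19 for all rows, and the median standard errors were 0.14 and 0.19. The members were expressed above most genes, with a median of 47.3 CPM at day 40 and 46.1 CPM at day 10, against 22.2 and 22.5 CPM over all rows, and higher counts give narrower intervals.

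**Figure D1:**
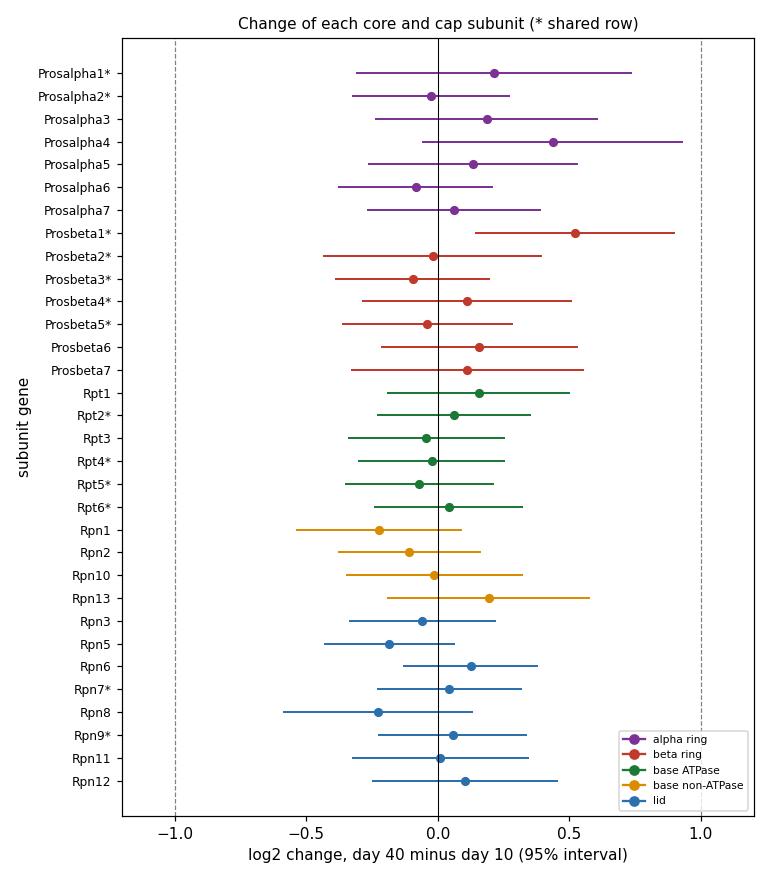
Each point is the log2 change of a core or cap subunit at day 40 relative to day 10 and each line its 95% interval from edgeR, colored by part of the complex, with dashed lines at a 2-fold change. All 32 intervals lie between the dashed lines, and the interval of Prosbeta1 alone excludes 0.

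By part of the complex, the median log2 change was 0.13 for the alpha ring, 0.11 for the beta ring, 0.01 for the base ATPases, -0.06 for the other base subunits and 0.03 for the lid. The number of genes above 0 was 5 of 7, 4 of 7, 3 of 6, 1 of 4 and 5 of 8 in that order. Leaving out day 10 replicate 1 moved the medians to 0.03, -0.03, 0.05, 0.01 and 0.02, so that the order of the parts was not kept and the beta ring and the other base subunits changed sign. Over all 32 members the median ranged from -0.02 to 0.09 when each library was left out in turn, and it was below 0 when day 10 replicate 2 or day 40 replicate 1 was omitted. The summed level of the 32 rows was 1909, 1808 and 1687 CPM at day 40 against 1748, 1671 and 1907 CPM at day 10. The ages overlapped in this sum, and an exact permutation test of the difference gave p = 0.7 (two-sided, n = 3 each). With 3 libraries against 3, the smallest p-value such a test can give is 0.1.

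**Figure D2:**
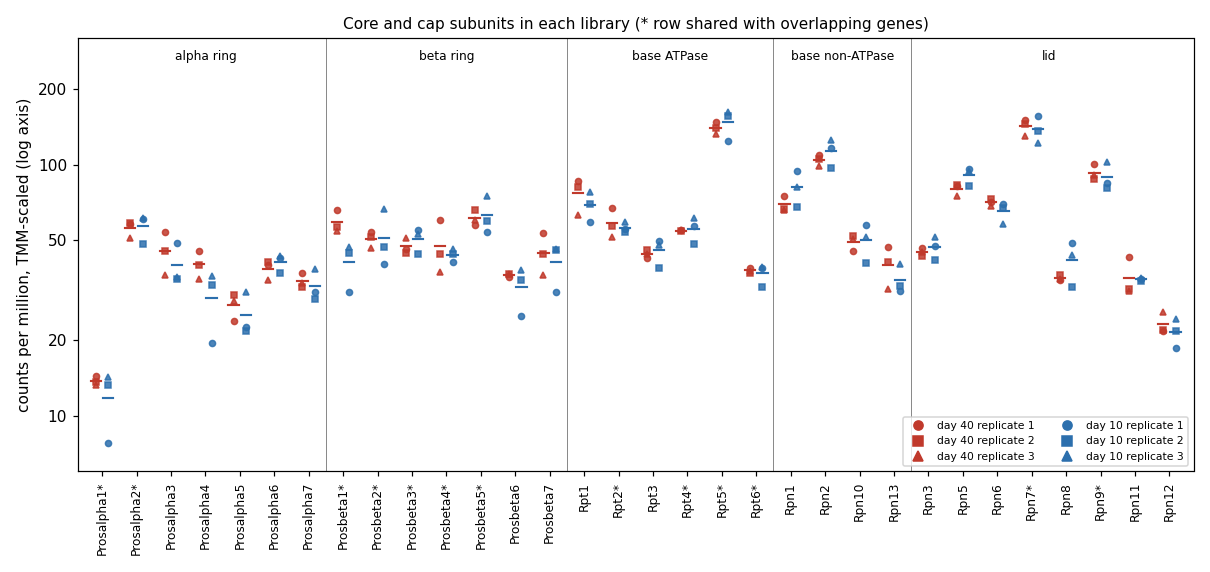
TMM-scaled CPM (log axis) of the 32 core and cap subunits in each library, with day 40 in red to the left of day 10 in blue, symbols for replicates and a bar at the mean of each age. The ages overlap for every subunit except Prosbeta1, and day 10 replicate 1 lies below the other libraries for 5 of the 7 beta subunits.

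Of the rows for the catalytic beta subunits, that of Prosbeta1 (FBgn0010590, chromosome 2R), which provides the caspase-like site, was the only core or cap row whose libraries did not overlap between ages. In comparison, 21.0% of all rows tested did not overlap. It had 65.7, 56.4 and 54.3 CPM at day 40 against 31.2, 44.3 and 47.0 CPM at day 10, a log2 change of 0.52 ± 0.17 (SE). All 3 libraries at day 40 were above all 3 at day 10, but the adjusted p-value was 0.179 in edgeR and 0.098 in DESeq2, and it ranged up to 0.472 over the alternatives. Without day 10 replicate 1, the lowest library, the log2 change was 0.37. These counts include any reads from CG8389.

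For Prosbeta2, which provides the trypsin-like site, the shared row had 53.7, 51.7 and 46.5 CPM at day 40 against 40.2, 46.9 and 66.4 CPM at day 10. The day 10 libraries spanned the day 40 libraries on both sides, and the 95% interval of the log2 change ran from -0.43 to 0.39. Prosbeta5, which provides the chymotrypsin-like site, had 57.2, 66.2 and 60.2 CPM at day 40 and 53.8, 59.8 and 75.1 CPM at day 10 in its shared row. Its day 10 replicates 1 and 3 were also the lowest and the highest of the 6 libraries, and the interval ran from -0.36 to 0.28. For these catalytic subunits the fitted direction depended on single libraries, as the log2 change of Prosbeta2 turned from -0.02 to 0.21 and that of Prosbeta5 from -0.04 to 0.11 without day 10 replicate 3.

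In the alpha ring, Prosalpha4 had the lowest p-value among the subunits counted alone. It had 45.4, 40.0 and 35.1 CPM at day 40 against 19.5, 33.1 and 35.9 CPM at day 10, a log2 change of 0.44 ± 0.22 (SE) with an adjusted p-value of 0.431 in edgeR. Day 10 replicate 1 was far below the other 5 libraries, and without it the log2 change was 0.22. Prosalpha3 showed the opposite, as day 10 replicate 1 was the highest library of its age. It had 54.0, 45.4 and 36.2 CPM at day 40 and 48.8, 34.9 and 35.8 CPM at day 10. Its log2 change was 0.19 ± 0.19 (SE), so the difference was about the size of its error, and single left-out libraries moved it between 0.04 (without day 40 replicate 1) and 0.36 (without day 10 replicate 1). Prosalpha6 had 39.7, 41.1 and 34.7 CPM at day 40 and 42.4, 36.9 and 43.2 CPM at day 10. All 6 of its libraries lay close together, and its log2 change was -0.09 ± 0.13 (SE), with a range of -0.16 (without day 10 replicate 2) to -0.01 (without day 40 replicate 3) when single libraries were left out. The remaining alpha genes had log2 changes between -0.03 and 0.21, with the highest in the row that Prosalpha1 shares with phr.

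In the base, the ATPases had the narrowest range of the 5 parts, with log2 changes between -0.07 and 0.16. Rpt1 was the highest of them in relative change, with 85.9, 81.5 and 62.9 CPM at day 40 against 58.9, 69.3 and 78.0 CPM at day 10. The libraries of the ages interleaved, and the log2 change was 0.16 ± 0.15 (SE), with a range of 0.06 (without day 10 replicate 1) to 0.28 (without day 40 replicate 3) when single libraries were left out. The other ATPase rows had log2 changes from -0.07 to 0.06.

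The ubiquitin receptors of the base had fitted changes of both signs, each with an interval that included no change, and they were not tested against each other. Rpn1, which also docks the shuttle proteins that deliver substrates, had 75.3, 66.6 and 66.1 CPM at day 40 against 94.4, 67.6 and 81.3 CPM at day 10. Its log2 change was -0.22 ± 0.14 (SE) with an adjusted p-value of 0.531, -0.10 without day 10 replicate 1, its highest library, and -0.34 without day 10 replicate 2. Rpn10 had 45.3, 52.1 and 50.6 CPM at day 40 and 57.5, 40.6 and 51.6 CPM at day 10. Its day 10 libraries again lay on both sides of the day 40 libraries, and the interval of its log2 change was -0.35 to 0.32. Rpn13 had 46.9, 41.1 and 32.0 CPM at day 40 and 31.4, 32.9 and 40.2 CPM at day 10, a log2 change of 0.19 ± 0.17 (SE). Without day 40 replicate 1 or 3 this was 0.07 or 0.34, and it was 0.31 without day 10 replicate 3. Rpn2, the scaffold on which Rpn13 sits, was the most abundant of the base genes counted alone in CPM, and its exons are the longest of the 19. It had 109.4, 105.4 and 98.7 CPM at day 40 and 116.3, 97.1 and 124.8 CPM at day 10, a log2 change of -0.11 ± 0.12 (SE). Without day 10 replicate 2 or 3 its log2 change was -0.21 or -0.03, and without day 40 replicate 3 it was -0.07.

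In the lid, the deubiquitinase Rpn11 had means of 35.3 CPM at day 40 and 35.0 CPM at day 10, but its day 40 libraries lay on both sides of the day 10 libraries. It had 42.7, 31.8 and 31.4 CPM at day 40 and 35.1, 34.5 and 35.4 CPM at day 10, and the interval of its log2 change was -0.32 to 0.34. Day 40 replicate 1 was its highest library, and without it the log2 change was -0.15. Rpn8, the catalytically inactive partner of Rpn11, had 34.8, 36.4 and 35.1 CPM at day 40 against 48.6, 32.5 and 43.6 CPM at day 10. The day 40 libraries were tight and the day 10 libraries spread around them, giving a log2 change of -0.23 ± 0.16 (SE) that moved to -0.09 or -0.38 when day 10 replicate 1 or 2 was omitted.

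Rpn5 and Rpn6 are scaffold subunits of the lid, and in yeast Rpn6 is known to brace the cap against the core. Rpn5 had 81.9, 82.6 and 74.8 CPM at day 40 and 95.7, 82.0 and 94.3 CPM at day 10. Its day 10 replicate 2 fell between the day 40 libraries, and the log2 change was -0.18 ± 0.11 (SE) with an adjusted p-value of 0.506. Rpn6 had 71.2, 73.1 and 68.4 CPM at day 40 and 69.9, 67.2 and 58.0 CPM at day 10, a log2 change of 0.12 ± 0.11 (SE), and 0.05 without day 10 replicate 3. The other lid rows had log2 changes between -0.06 and 0.10.

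Levels of different subunits were compared per length, as CPM divided by the summed length of the gene's exonic parts in kilobases (RPKM), for the 19 members counted alone. At day 40 they ranged from 22.8 RPKM for Rpn1 to 50.7 RPKM for Rpt1, a 2.22-fold span with a median of 34.2 RPKM. At day 10 they ranged from 20.8 RPKM for Rpn13 to 47.8 RPKM for Rpn5, a 2.29-fold span with a median of 33.0 RPKM. The median of all 7024 single genes tested was 8.86 RPKM at day 40 and 8.83 RPKM at day 10. At day 40 the lowest member was at percentile 73.6 of these genes and the highest at percentile 88.3. The coefficient of variation among the members was 24.3% at day 40 and 23.2% at day 10. These 19 genes thus lay in a narrow band at both ages, and without day 10 replicate 1 the day 10 span was 2.23-fold. Shared rows were not compared per length. Among them, the row of Prosalpha1 had the lowest CPM of the 32 rows, with means of 13.7 at day 40 and 11.7 at day 10. The day 40 span was 2.52-fold without day 40 replicate 3.

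Within this band the order was poorly resolved. At day 40 the means ran from Rpt1 at 50.7 ± 8.1 RPKM (SD, n = 3), Prosalpha3 at 46.5 ± 9.1 RPKM and Rpn5 at 42.0 ± 2.3 RPKM down to Rpn12 at 23.3 ± 2.3 RPKM, Rpn8 at 23.1 ± 0.54 RPKM and Rpn1 at 22.8 ± 1.7 RPKM. Of 18 pairs of neighbors in this order, 2 did not overlap in any library, namely Rpn5 above Prosbeta6 and Rpt3 above Rpn3. At day 10, 0 of 18 pairs were separated. The core subunits counted alone ranged from 29.1 to 46.5 RPKM at day 40 and from 25.1 to 40.9 RPKM at day 10, and the cap subunits filled the whole range at both ages.

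**Figure D3:**
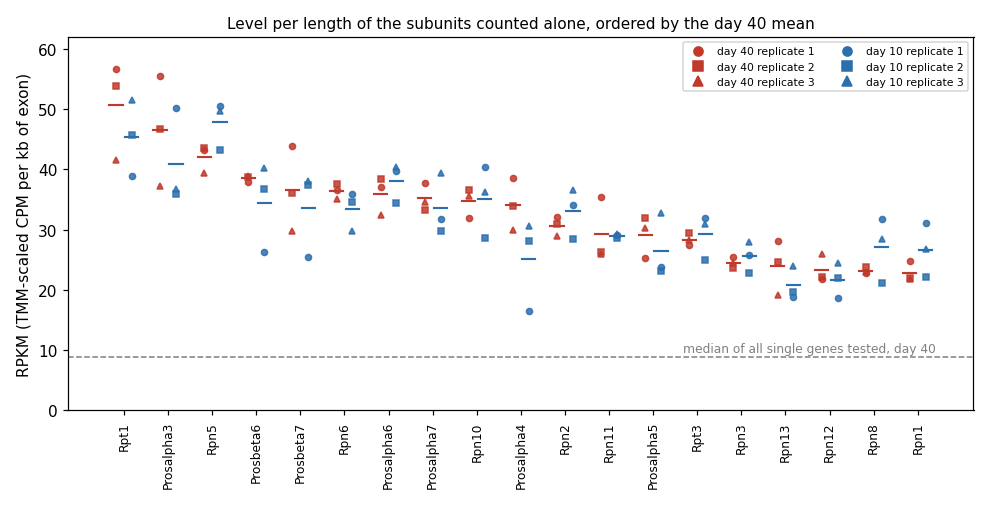
RPKM of the 19 subunits counted alone in each library, ordered by the day 40 mean, with day 40 in red left of day 10 in blue and bars at the means. The day 40 means fall between 22.8 and 50.7 RPKM, above the dashed median of 8.86 RPKM for all single genes tested.

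The balance of core and cap was also compared within libraries. The summed CPM of the 14 ring subunits divided by that of the 18 cap subunits was 0.51, 0.503 and 0.49 at day 40 and 0.411, 0.473 and 0.494 at day 10 (exact permutation test, two-sided, p = 0.2). With only the 7 ring and 12 cap subunits counted alone, the ratio was 0.41, 0.396 and 0.38 at day 40 and 0.304, 0.377 and 0.367 at day 10. Here the ages did not overlap, and p = 0.1 was the smallest value the exact test can give. In both versions the lowest ratio was in day 10 replicate 1, and the other 2 day 10 libraries were close to the lowest day 40 library. This comparison was chosen after the values were seen. Among the genes counted alone, median exonic lengths were 976 and 1079.5 bases in the rings and 1534 to 2356.5 bases in the parts of the cap. Their log2 changes fell with length, with a rank (Spearman) correlation of -0.52. It was -0.37 without day 10 replicate 1, against -0.08 over all single genes tested. The part of length in the ratio was not tested.

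Of the 6 libraries, day 10 replicate 1 had the widest spread over these genes. It was the lowest library for 11 of 32 members and the highest for 7. The spread of the members' log2 deviations from their own means was 0.29 (SD) in this library, against 0.10 to 0.17 in the other 5. Over all rows tested this spread was 0.434 in the same library, 0.427 in day 10 replicate 3 and 0.321 to 0.365 in the other 4. Among the beta ring genes it was the lowest library for Prosbeta1, Prosbeta2, Prosbeta5, Prosbeta6 and Prosbeta7, and the median log2 difference of the beta genes from the other day 10 libraries was -0.47. This median was -0.11 for the alpha ring, 0.03 for the base ATPases, 0.20 for the other base subunits and 0.08 for the lid. Single lid genes ran from -0.31 to 0.36. Day 10 replicate 3, in turn, was the highest library for 13 of 32 members, and day 10 replicate 2 the lowest for 13.

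Coverage of splice junctions separated the same library. Over the 17 members counted alone that have junctions, junction counts per 100 counts on the gene were 22.2, 19.5 and 18.3 at day 40 against 12.9, 20.3 and 20.3 at day 10. Day 10 replicate 1 was the lowest library for 12 of these 17 genes. For Prosalpha6 the value was 30.9, 36.9 and 32.8 at day 40 and 14.4, 32.4 and 34.7 at day 10. In Rpn6 it was 20.6, 23.2 and 20.3 at day 40 and 10.4, 24.2 and 24.0 at day 10. Over all single genes tested the same library was also lowest, at 22.9, against 26.4 to 30.4 in the other 5. The part of this difference in coverage in the gene levels was not tested.

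**Figure D4:**
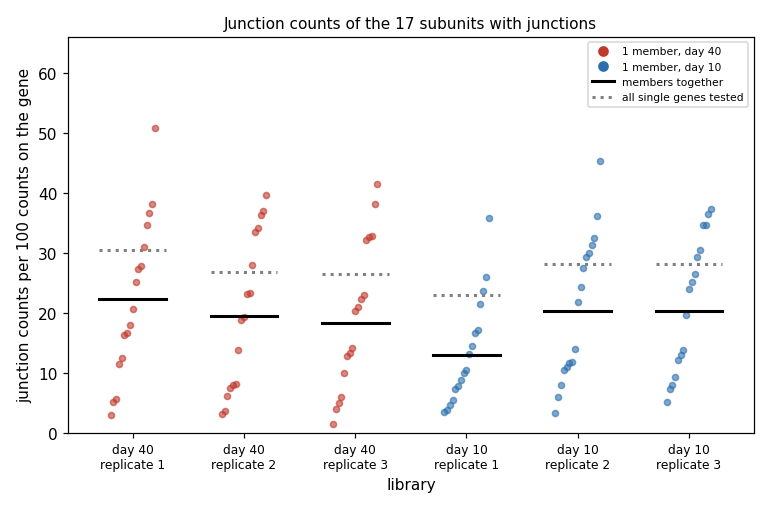
Junction counts per 100 counts on the gene for the 17 subunits with junctions, 1 point per gene, in the 3 day 40 (red) and 3 day 10 (blue) libraries, with solid bars for the members together and dotted bars for all single genes tested. Day 10 replicate 1 has the lowest value for the members, at 12.9, and for all genes, at 22.9.

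Splicing of the subunit genes was examined as the usage of each exonic part and junction relative to the rest of its gene. The test covered 96 features of 17 members counted alone (62 exonic parts and 34 junctions) that averaged 5 or more normalized counts. In edgeR, 0 of 96 had an adjusted p-value under 0.05, against 2 of 59966 features in all, or 0.00334%. Without adjustment 0 of 96 had a p-value under 0.05, against 3.02% of all features, and the DESeq2 likelihood ratio test also gave 0 for both, against 0.0434% of all features called and 2.23% under 0.05 without adjustment. The lowest p-value was 0.065, for junction J3 of Rpn1, which held 2.85%, 3.66% and 1.41% of the gene's counts at day 40 against 5.44%, 3.24% and 5.05% at day 10. Its counts were low, between 12 and 59 per library, and the log2 usage change was -0.86 ± 0.40 (SE). The median standard error over the 96 features was also 0.40 on the log2 scale. The shares of all features under 0.05 without adjustment, 3.02% and 2.23%, were smaller than that threshold itself. Both tests were thus strict, and 0 calls do not show that splicing of the members was unchanged. The study reported differential splicing events between these ages in the eye with another tool, JunctionSeq, which was not run here. In the rows of overlapping genes that hold a subunit, 0 of 182 features were called and 8 had an unadjusted p-value under 0.05. Over all 96109 features of that fit 0 were called and 3.33% had an unadjusted p-value under 0.05. These shared features cannot be assigned to the subunit gene.

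The testis-type paralogs are copies of core and cap genes, some of which are known to replace the general subunit in male germ cells of flies. They were near the limit of detection in eyes. Of 16, 6 passed the filter on low counts, and 0 were called by edgeR, DESeq2 or limma-voom, against 4.12%, 6.22% and 2.77% of all rows. Before adjustment the p-value was below 0.05 for Prosbeta2R2 with edgeR, for Prosbeta2R2 and Rpt6R with DESeq2 and for 0 paralogs with limma-voom. The 13 counted alone had 926 counts in all 6 libraries together, which is 1.45% of the 63866 counts of the 19 core and cap genes counted alone. Per length, the 6 that could be set against a parent counted alone reached 0.376% (Prosalpha6T against Prosalpha6) to 8.05% (Rpn13R against Rpn13) of its level. Since the copies resemble their parents, reads could have been assigned to the wrong copy, and how the counting treated such reads is not given in the sources used here. Rpt3R had 35.8 to 39.1 CPM at day 40 and 39.0 to 41.9 CPM at day 10, but its row is shared with Alg12.

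The paralogs whose ages did not overlap are described first. Rpt4R, a copy of the base ATPase Rpt4, had the most counts of those counted alone, with 25, 29 and 45 at day 40 against 51, 52 and 51 at day 10. It had 2.98, 2.95 and 3.48 CPM at day 40 and 6.09, 3.55 and 3.55 CPM at day 10, a log2 change of -0.46 ± 0.33 (SE), and -0.17 without day 10 replicate 1. Prosbeta2R2, a copy of the trypsin-like subunit, had 7, 8 and 8 counts at day 40 against 14, 16 and 77 at day 10. Its log2 change was -1.86 ± 0.66 (SE) with an adjusted p-value of 0.227 in edgeR and 0.131 in DESeq2. Most of its counts came from day 10 replicate 3, and without that library the log2 change was -0.85. Rpt6R, a copy of Rpt6, had 1, 3 and 9 counts at day 40 against 16, 12 and 37 at day 10 and did not pass the filter. In these 3 of 16 paralogs all day 40 libraries lay below all day 10 libraries in CPM, with 0 paralogs the other way round. Of the 6 paralogs tested, 2 did not overlap between ages, against 21.0% of all rows tested, in either direction. The remaining paralogs counted alone had between 2 and 171 counts in the 6 libraries together. Of these, Prosalpha3T, Rpn13R and Prosalpha4T1 passed the filter, and their ages overlapped. Their log2 changes were -0.31 ± 0.39, -0.11 ± 0.60 and 0.48 ± 0.71 (SE) in that order.

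Summed over the 13 paralogs counted alone, the level was 9.90, 9.56 and 12.2 CPM at day 40 and 16.1, 13.3 and 18.2 CPM at day 10. The ages did not overlap, with p = 0.1 in the exact permutation test, the smallest it can give. Without Prosbeta2R2 the sums were 9.06, 8.74 and 11.6 CPM at day 40 and 14.5, 12.2 and 12.9 CPM at day 10. Of 13 testis markers, 10 averaged under 1 CPM, and 11 of them summed to 2.27, 2.85 and 6.50 CPM at day 40 and 4.78, 1.09 and 4.94 CPM at day 10. The other 2 were higher, bol at 439 to 516 CPM at day 40 and 397 to 511 CPM at day 10, and janB, which shares its row, at 15.1 to 17.9 CPM at day 40 and 17.3 to 18.9 CPM at day 10.

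**Figure D5:**
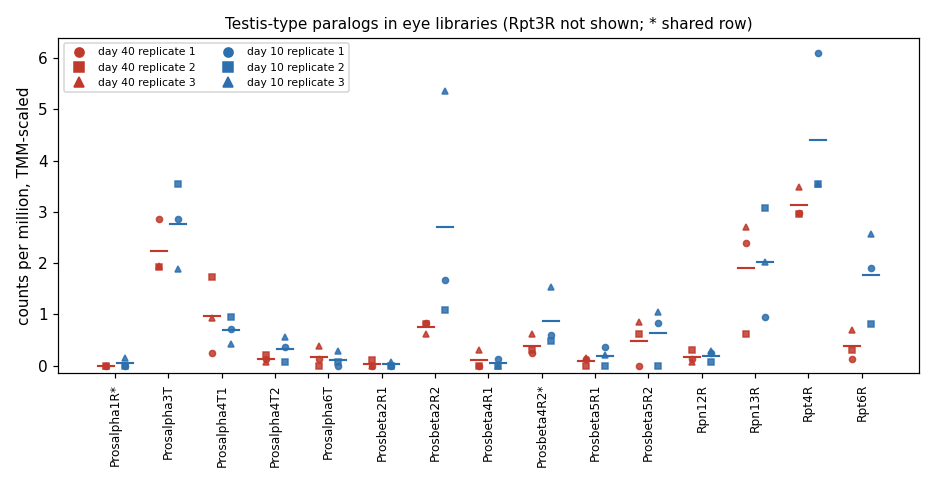
TMM-scaled CPM of 15 testis-type paralogs in each library, with day 40 in red left of day 10 in blue and bars at the means, leaving out the row that Rpt3R shares with Alg12. Prosbeta2R2, Rpt4R and Rpt6R are the paralogs whose day 40 libraries all lie below the day 10 libraries, and Prosbeta2R2 reaches 5.36 CPM in day 10 replicate 3.

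Genes that build, activate or feed the proteasome were compared as a fixed list of 17, of which 16 were counted. In edgeR, 0 of 16 passed the test, against 4.12% of all rows. DESeq2 called 1 of 16, Npl4, against 6.22% of all rows. In edgeR 3 had an unadjusted p-value under 0.05 (14.3% of all rows did), and the median log2 change was -0.09, against -0.01 over all rows. Npl4, a cofactor of the segregase that extracts ubiquitinated proteins, had 47.6, 51.9 and 50.2 CPM at day 40 against 71.9, 56.4 and 94.2 CPM at day 10. All its day 40 libraries were below the day 10 libraries. The ages did not overlap for 3 of the 16 rows, against 21.0% of all rows tested. Npl4 had a log2 change of -0.57 ± 0.18 (SE) and an adjusted p-value of 0.16 in edgeR. Keap1, the inhibitor of the transcription factor encoded by cnc, had 20.5, 20.6 and 19.6 CPM at day 40 and 24.5, 22.3 and 40.3 CPM at day 10, with an adjusted p-value of 0.322. The row of Pomp, a chaperone that assembles the core, had 178.9, 157.9 and 150.3 CPM at day 40 and 102.6, 140.0 and 141.8 CPM at day 10, with a log2 change of 0.34 ± 0.14 (SE) and an adjusted p-value of 0.326. As for Prosbeta1, day 10 replicate 1 was its lowest library. The row of cnc itself, whose mammalian relatives drive proteasome gene transcription, had a log2 change of 0.10 ± 0.11 (SE). REG, an alternative cap, and the shared row of PI31, a proteasome-binding regulator, had log2 changes of -0.10 and 0.13.

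Of the 5 genes for ubiquitin and its activation, 0 passed the test in edgeR or DESeq2, against 4.12% and 6.22% of all rows. In edgeR 0 had an unadjusted p-value under 0.05, against 14.3% of all rows, and the median log2 change was 0.06. Uba1, the enzyme that activates ubiquitin, had a log2 change of 0.06 ± 0.10 (SE). The polyubiquitin gene Ubi-p63E had 286.6, 283.1 and 261.6 CPM at day 40 and 450.3, 264.3 and 236.8 CPM at day 10, so that a single day 10 library, replicate 1, stood above the rest.

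Other assemblies of several subunits gave a comparison for the range of changes. The COP9 signalosome and eIF3, a translation initiation factor, are built on the same plan as the lid, and CCT is a chaperonin that folds actin and tubulin. None of 8 COP9, 13 eIF3 or 7 CCT genes passed the test in edgeR, DESeq2 or limma-voom, against 4.12%, 6.22% and 2.77% of all rows. In edgeR 1 of them, CSN6, which shares its row with another gene, had an unadjusted p-value under 0.05 (14.3% of all rows did). The median log2 changes were -0.06, -0.07 and -0.09. The summed COP9 level was 173.9, 179.0 and 174.5 CPM at day 40 and 186.1, 181.5 and 191.4 CPM at day 10. These sums did not overlap between ages, with the smallest possible p-value of 0.1 in the exact permutation test. The CSN6 row was lower at day 40 by a log2 change of -0.31 with an adjusted p-value of 0.319 in edgeR. For eIF3 and CCT the summed levels overlapped between ages. Log2 changes ran from -0.36 to 0.15 in COP9, from -0.30 to 0.28 in eIF3 and from -0.24 to 0.43 in CCT, against -0.23 to 0.52 for the core and cap subunits. The highest value in CCT was that of the row that CCT5 shares with another gene.

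In the genome (build BDGP6, matching Release 6), the 32 core and cap genes are scattered, with 10 on chromosome arm 2R, 9 on 3R, 5 on 3L, 4 on X and 4 on 2L. The closest pair was Rpn9 (3R, 23731375 to 23733462) and Rpt5 (3R, 23752876 to 23754623), 19414 bases apart. Next came Rpn12 (3L, 16583028 to 16584022) and Prosbeta6 (3L, 16609400 to 16610418), 25378 bases apart. The log2 changes were 0.06 and -0.07 in the first pair and 0.10 and 0.16 in the second, each smaller than its standard error. All other neighboring pairs on an arm were at least 173349 bases apart.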

How the data were processed

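Total RNA from dissected male eyes was ribo-depleted and sequenced, with 3 libraries at day 40 and 3 at day 10. Per the labels, the authors' processing notes name Trimmomatic, TopHat and BDGP6, with no versions. The authors deposited raw counts of reads for each gene, exonic part and junction of each library, with overlapping genes joined in a row (2404 of 14537 gene rows). Strand use and the handling of reads that fit several places are not given in the sources used here. From a table with the authors' own comparison (fold changes and p-values, not used) only other values, the positions of features, were taken. Symbols were found for 17253 of 17560 identifiers, and 3 listed genes (TER94, CCT8, wupA) were not analysed here.

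Gene rows were tested with edgeR 4.0.16 in R 4.3.3 (TMM scaling, default filter, quasi-likelihood test, Benjamini-Hochberg adjustment over 9255 rows, threshold 0.1 as in the study). Standard errors are the log2 change divided by the square root of F. Usage was tested on the counts of a feature and of the rest of its gene, with library terms (threshold 0.05). DESeq2 1.42.0 and limma 3.58.1 were alternatives, as were other scalings, filters, leaving out each library and a replicate block. The tests were checked on simulated data. The named members were Prosbeta1, Prosbeta2, Prosbeta5, Rpn1, Rpn10, Rpn11, Rpn13, any called member, and the 5 rising and 5 falling genes counted alone with the lowest p-values. The members and lists were chosen with earlier results of these data known. The labels call the libraries biological replicates, and all pairs differed by more than counting error. No sequences are shown.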

Additional observations from a re-analysis of the deposited data

How the results depend on the processing

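Of 16 alternatives for the number of members called, 15 gave 0, and DESeq2 gave 1. With the adjusted p-value of Prosbeta1 at 0.098, this was the only named member to cross the threshold of 0.1, at a log2 change of 0.53. The median log2 change of the 32 members was -0.02 to 0.09 when each library was left out and 0.02 to 0.06 otherwise. Over all rows, edgeR called 381, DESeq2 601, and edgeR without day 40 replicate 1, 2 or 3 called 122, 116 or 146, while 221 had an adjusted p-value under 0.05. Usage gave 0 called features of the members in all 10 alternatives, and 0 to 2 of all features against 26 with the DESeq2 test. The span of day 40 levels per length was 2.15-fold to 2.52-fold when each day 40 library was left out, and 2.52-fold without replicate 3. Near 0, the sign depended on the setting. Rpn11 was at -0.012 with upper-quartile scaling, -0.0032 with library totals alone, -0.017 with limma-voom and -0.15 to 0.092 when each library was left out (-0.15 without day 40 replicate 1 and -0.0023 without day 10 replicate 2). Rpn10 was at 0.016 with limma-voom and -0.15 to 0.11 when each library was left out (0.11 and 0.01 without day 10 replicates 1 and 3, 0.05 without day 40 replicate 1). Left-out libraries gave -0.15 to 0.21 for Prosbeta2 (0.21 without day 10 replicate 3, 0.04 without day 40 replicate 3) and -0.13 to 0.11 for Prosbeta5 (0.11 without day 10 replicate 3, 0.01 without day 40 replicate 1). The cause was not tested. Same-numbered libraries had correlations of 0.0001, -0.01 and 0.15, which show no pairing by replicate number. Taken on deviations from means of 3 libraries, they cannot exclude it. With a replicate block, 0 members and 464 of 9255 rows were called, the median was 0.05, and Prosbeta2 and Rpn11 were at 0.0081 and -0.0053. The usage test already holds a term for each library. Levels per length from RefSeq transcript lengths were not run. With 14626 to 27405 counts on the members per library, 4 of 32 intervals still reached past a 1.5-fold change.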
